A study of Zea mays with 24 samples.

Results

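TC261622 and TC273756 are maize EST assemblies whose products act on membrane phospholipids: the first is a homologue of aminoalcoholphosphotransferase, and the second is weakly similar to a lysophospholipase homologue. They are 2 of the 7900 probes with a value, and were found by their EST names in the tables of the study, 1 probe for each. Both were selected on ratios of these same arrays, TC261622 for its low ratios in A619 anthers and TC273756 apparently for leaf, where its ratio differs between lines. Their ratios are therefore given as a description and without a test. Each probe lies in the orientation of its assembly, with no mismatch listed and 1 assembly matched. That match is to the assembly and not to the allele of each line. A sequence difference under the probe thus cannot be told apart from a difference in RNA. The paper holds that its probes probably work well across lines, but cautions about cross hybridization, given polymorphic inbreds and duplicated genes. A product name stands for similarity of the assembled sequence to a protein and not for a measured activity.

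Aminoalcoholphosphotransferase carries out the last step of the nucleotide pathway of phospholipid synthesis. It moves phosphocholine or phosphoethanolamine from its CDP carrier to diacylglycerol, which gives phosphatidylcholine or phosphatidylethanolamine, the main phospholipids of plant membranes outside the plastid. Upstream, choline kinase phosphorylates choline, another enzyme turns phosphocholine into CDP-choline with CTP, and in plants phosphoethanolamine methyltransferase supplies phosphocholine by methylation. Lysophospholipases act at the other end of the life of a phospholipid, removing the remaining fatty acid from a lysophospholipid.

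RNA from A619, from the F1 hybrid ND101/W23 (ND101 crossed with W23 pollen) and from the inbred W23 was compared on 24 arrays of 2 colours, with A619 or ND101/W23 against W23 in each of 4 tissues: anthers of 1 mm, anthers of 1.5 mm, juvenile leaf and mature pollen. A619 is a derivative of the line of that name, and W23 carries the bz2 mutation, which blocks anthocyanin deposition. All plants were grown in 1 field. Anther samples pool many anthers, at 1 mm typically of a single tassel, and each pollen sample came from 1 plant. Each of the 8 comparisons had 3 arrays, and the 36 biological samples were 12 of A619, 12 of ND101/W23 and 12 of W23. Every W23 sample was used against both lines, on arrays that carry 1 replicate number, so that the lines were not measured against independent W23 material. Relative to replicate 1, the dyes were exchanged on replicate 3 of every comparison, and at 1.5 mm also on replicate 2. Every value is a deposited log2 ratio of the line over W23. The direction was set for ND101/W23 by array ratios that the study lists for its PCR panel, and for A619 it is likely, from the positive correlation with the ND101/W23 arrays of the same number. Array medians lay between -0.04 and 0.04. The deposited table holds ratios and no signals, so that levels cannot be compared between tissues or genes, the tissues cannot be checked by their markers, and fewer cells of a type cannot be told apart from less RNA per cell.

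A further limit bears on both transcripts. TC261622 is on the study's list of transcripts specific to juvenile leaf, and TC273756 on that for mature pollen. The study kept a probe in all tissues when it passed the background threshold in any comparison, so a ratio in another tissue does not show that the signal passed there. The study defines a tissue-specific probe by a positive signal in a single sample type. By its lists, which it calls putative, TC261622 was thus not counted as present in anthers, nor TC273756 in leaf. How far above background, if at all, the signals behind those ratios lay is not known from ratios.

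TC261622 was lower in A619 than in W23 at both anther stages. On the A619 arrays of 1 mm anthers its log2 ratios were -2.59, -1.99 and -2.05, against -0.57, -0.46 and -0.99 on the ND101/W23 arrays. On those of 1.5 mm anthers they were -2.96, -2.86 and -2.82 in A619, against -0.91, -0.94 and -0.47 in ND101/W23. All 12 anther ratios lay below 0, and the ranges of A619 and ND101/W23 did not overlap at either stage. In A619 the mean was -2.21 ± 0.33 at 1 mm, which is 4.63-fold lower than W23, and -2.88 ± 0.07 at 1.5 mm, which is 7.36-fold lower (SD, n = 3 arrays each). The spread at 1.5 mm was smaller than that of most transcripts, whose median SD in this comparison was 0.22. The hybrid averaged -0.67 ± 0.28 at 1 mm and -0.77 ± 0.26 at 1.5 mm.

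Among all probes in A619, the mean of TC261622 was the 19th lowest of 7900 in 1 mm anthers and the 18th lowest of 7899 in 1.5 mm anthers, ranks that would count from the highest if the likely direction of the A619 ratios were turned. Within the study's leaf list it was the lowest of 863 transcripts at 1 mm and the 4th lowest of 862 at 1.5 mm. The list as a whole stayed near 0 on these arrays, with medians between 0.01 and 0.07 on the 6 A619 anther arrays. It holds transcripts that the study called specific to leaf, which may lack signal in anthers. The rank and the medians therefore cannot show whether TC261622 behaved apart from its list.

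In leaf, where the study lists it, TC261622 varied widely between the A619 arrays. Its ratios were -1.57, -3.85 and -0.33 in A619, against -0.75, -0.90 and -0.10 in ND101/W23 for replicates 1, 2 and 3. The lines overlapped. In both, replicate 2 was lowest and replicate 3 nearest to 0, and these arrays share their W23 samples. Replicate 3 is also the only leaf array of each line with exchanged dyes, so W23 sample and dye cannot be told apart on it. The mean of A619 was -1.92 ± 1.79 and moved to -0.95 without replicate 2, while that of ND101/W23 was -0.58 ± 0.43. In pollen the ratios were close to 0, at -0.26, -0.38 and -0.04 in A619, against 0.75, 0.14 and -0.09 in ND101/W23, the pollen arrays of the hybrid being the only ones with a ratio above 0 (2 of them).

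**Figure D1:**
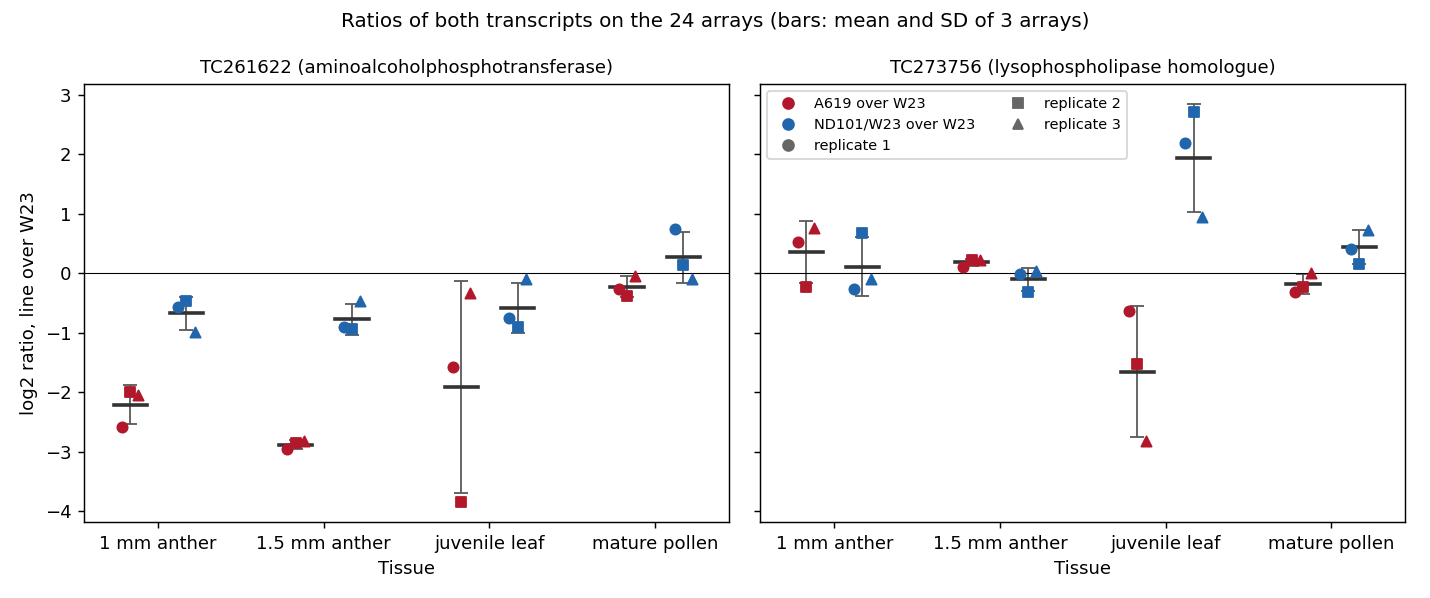
Log2 ratios of the line over W23 (vertical axis) for TC261622 (left panel) and TC273756 (right panel) in the 4 tissues, with A619 in red and ND101/W23 in blue. Symbols mark the replicate number and bars the mean and SD of 3 arrays. The A619 anther ratios of TC261622 lie at or below -1.99, and TC273756 departs from 0 mainly in leaf, in opposite directions in the lines.

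Ordered from lowest to highest, the 8 means of TC261622 ran from A619 1.5 mm anthers through A619 1 mm anthers, A619 leaf, ND101/W23 1.5 mm anthers, ND101/W23 1 mm anthers, ND101/W23 leaf and A619 pollen to ND101/W23 pollen. Only the first 2 neighbours in this order had ranges without overlap. TC261622 lay below 0 on 22 of 24 arrays, which were 12 of 12 in A619 and 10 of 12 in ND101/W23.

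TC273756 showed another pattern: its departure from W23 was in leaf, and it had opposite signs in the lines. In leaf its log2 ratios were -0.63, -1.52 and -2.82 in A619, against 2.18, 2.71 and 0.94 in ND101/W23. All 3 ratios of A619 lay below 0 and all 3 of the hybrid above 0, without overlap. The mean was -1.66 ± 1.10 in A619, which is 3.15-fold lower than W23, and 1.94 ± 0.91 in ND101/W23, which is 3.85-fold higher (SD, n = 3 each).

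Outside leaf the ratios of TC273756 were small. In 1 mm anthers they were 0.53, -0.23 and 0.76 in A619, against -0.26, 0.67 and -0.09 in ND101/W23, and the lines overlapped. In 1.5 mm anthers they were 0.11, 0.22 and 0.22 in A619, against -0.02, -0.32 and 0.03 in ND101/W23. In pollen, the tissue of its list, they were -0.31, -0.24 and 0.01 in A619, against 0.41, 0.16 and 0.73 in ND101/W23. At 1.5 mm and in pollen the ranges of the lines did not overlap, although each mean was within 0.43 of 0.

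The pollen list of the study moved on some of the same arrays. Its median over 330 transcripts was -0.455 on leaf replicate 3 of A619 and -0.40 on leaf replicate 3 of ND101/W23, beside -0.08 and -0.03 on replicates 1 and 2 of A619 and -0.075 and -0.005 on those of the hybrid. The lowest leaf ratio of TC273756 in each line was on replicate 3, the leaf array with exchanged dyes. There the shared W23 sample and the dye cannot be told apart. On 1 mm anther replicate 2 of ND101/W23 the list median was 0.44, and TC273756 had its highest ratio of that comparison there. The part of these list shifts in the ratios of TC273756 was not tested. Without leaf replicate 3 its mean was -1.07 in A619 and 2.44 in ND101/W23. Within the pollen list the mean leaf ratio of TC273756 was the 11th lowest of 330 in A619 and the 2nd highest of 330 in ND101/W23, where it was the 51st highest of all 7900 probes. Transcripts specific to pollen may lack signal in leaf, so the ranks in the list cannot show whether TC273756 behaved apart from it.

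**Figure D2:**
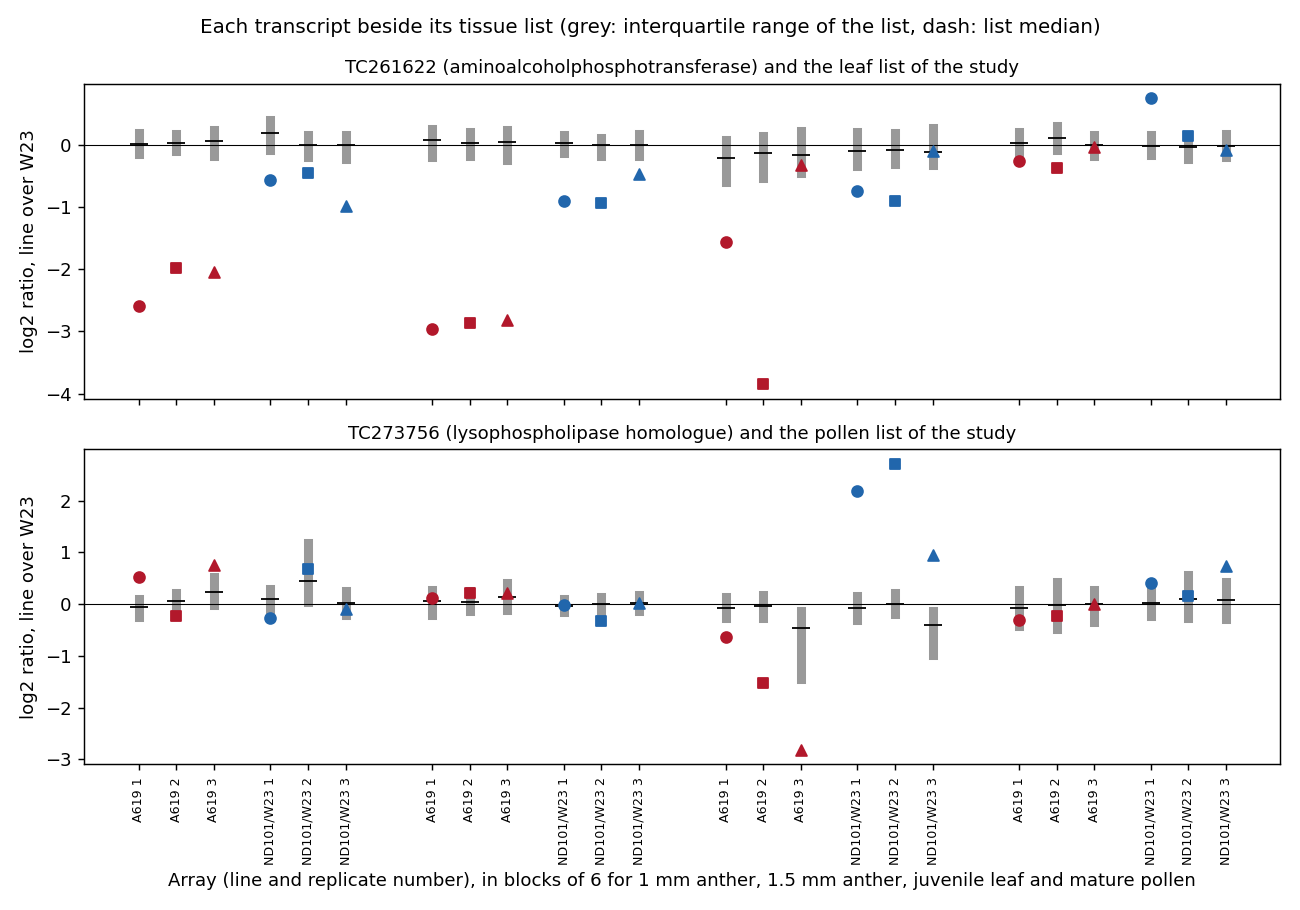
Log2 ratio of the line over W23 (vertical axis) of TC261622 with the study's leaf list (upper panel) and of TC273756 with its pollen list (lower panel) on each of the 24 arrays, A619 in red and ND101/W23 in blue. Grey bars are the interquartile range of the list and dashes its median. The leaf list stays near 0 where TC261622 is low, and the pollen list is lower on leaf replicate 3 of both lines.

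In order, the means of TC273756 ran from A619 leaf through A619 pollen, ND101/W23 1.5 mm anthers, ND101/W23 1 mm anthers, A619 1.5 mm anthers, A619 1 mm anthers and ND101/W23 pollen to ND101/W23 leaf. Both leaf means stood apart from their neighbours, and the ranges of the 6 means between them overlapped from each to the next. Over the 24 arrays the ratios of the members correlated at 0.134. That value is a description, since arrays of the lines share W23 samples.

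Because the same W23 sample was on the arrays of both lines, it drops out of the difference between A619 and ND101/W23 arrays of 1 number. For TC261622 this difference was -2.02, -1.53 and -1.06 in 1 mm anthers (mean -1.54 ± 0.48) and -2.05, -1.92 and -2.35 in 1.5 mm anthers (mean -2.11 ± 0.22). A619 was thus lower than the hybrid in every pair of anther arrays. In leaf the difference was -0.82, -2.95 and -0.23, with an SD of 1.43, so that the spread seen between leaf arrays was not removed with the W23 sample. In pollen it was -1.01, -0.52 and 0.05.

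For TC273756 the leaf difference was -2.81, -4.23 and -3.76, a mean of -3.60 ± 0.72, which is 12.1-fold lower in A619 than in ND101/W23. The SD of this difference was smaller than the SD of the A619 or of the ND101/W23 leaf ratios. In pollen A619 was lower in each pair as well, by -0.72, -0.40 and -0.72. In 1 mm anthers the pairs disagreed in sign, at 0.79, -0.90 and 0.85, and in 1.5 mm anthers they gave 0.13, 0.54 and 0.19.

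**Figure D3:**
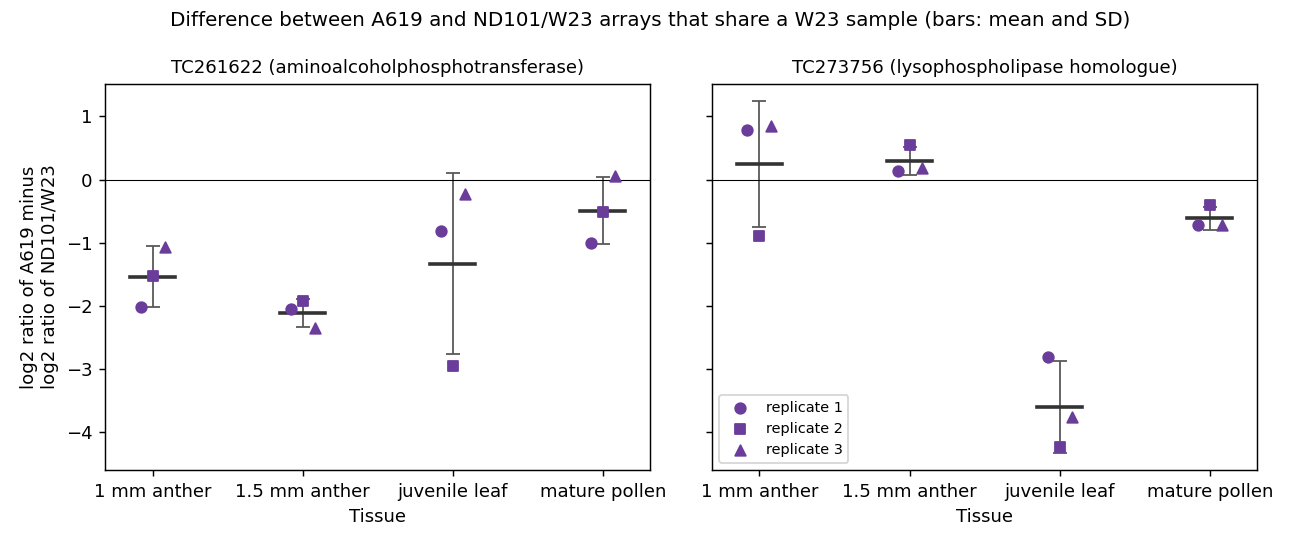
Log2 ratio of A619 minus that of ND101/W23 (vertical axis) for pairs of arrays that share a W23 sample, by tissue, for TC261622 (left panel) and TC273756 (right panel). Symbols are replicate numbers and bars the mean and SD of 3 pairs. TC261622 is lower in A619 in all anther pairs, and TC273756 in all leaf pairs, with differences of -4.23 to -2.81.

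A probe was called when its mean differed from 0 in limma at a Benjamini-Hochberg adjusted p under 0.05 and all its ratios had the same sign. In A619 this called 4.14% of all probes at the 1 mm stage, 20.3% at 1.5 mm, 42.0% for leaf and 1.53% for pollen. In ND101/W23 the shares were 7.05%, 3.96%, 10.3% and 0.937%. The members were selected on these ratios, so no call is given for them, and the calls below are of other transcripts.

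For the difference between lines, 0.734% of all probes were called at the 1 mm stage, 3.84% at 1.5 mm, 21.0% for leaf and 0.00% for pollen, where limma called 0 probes, 681 had an unadjusted p under 0.05, and 1 was called with the replicate number, which marks the shared W23 sample, as a block in the fit.

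Tissues were compared within a line in a fit on all 24 arrays. The A619 ratio of TC261622 was higher in pollen than in anthers by 2.32 (standard error 0.45), while leaf minus anthers was 0.63 (0.45). In ND101/W23 these differences were 0.99 for pollen and 0.14 for leaf, each with a standard error of 0.45. For TC273756, leaf minus anthers was -1.93 in A619 and 1.94 in ND101/W23 (standard error 0.38 each), against -0.45 and 0.43 for pollen minus anthers. Between the anther stages, 1.5 mm minus 1 mm was -0.67 in A619 and -0.10 in ND101/W23 for TC261622, and -0.17 and -0.21 for TC273756.

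The named transcripts with the ratios most like those of each member were taken from 1192 probes with a product name and a value on all arrays. For TC261622 they were TC272617 (similar to a gag-pol polyprotein of a retrotransposon, r = 0.825 over 24 arrays), TC260239 (NADP dependent malic enzyme, which releases CO2 from malate, r = 0.80), TC251804 (carboxyl-terminal proteinase-like, r = 0.784), TC264169 (acyl-peptide hydrolase-like, r = 0.782) and TC259377 (a polypyrimidine tract-binding protein homologue, an RNA-binding protein, r = 0.782). In A619 all 5 had lower means in 1.5 mm anthers than in pollen, from -4.17 for TC260239 to -1.04 for TC259377 in 1.5 mm anthers and from -0.36 to 0.12 in pollen. In A619 leaf their means were below 0 as well, from -3.42 for TC260239 to -0.29 for TC259377. None of them is on the leaf list except TC259377.

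For TC273756 they were TC248667 (weakly similar to the protein AFR136Cp, r = 0.802), TC270662 (homologue of a thioesterase fragment, r = 0.80), TC260017 (a nonspecific lipid transfer protein, r = 0.798), TC273113 (similar to the pollen specific protein SF21, r = 0.764) and TC273131 (weakly similar to alcohol dehydrogenase class III, r = 0.739). All 5 were low in leaf of A619, with means of -4.94 to -1.23, and above 0 in leaf of ND101/W23, with means of 0.51 to 2.96. TC273113 is on the pollen list with TC273756, and the other 4 are on the leaf list. These correlations are descriptions over arrays that share W23 samples. Each set was picked for high correlation with its member on these same arrays, so sharing that member's pattern follows from the choice.

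**Figure D4:**
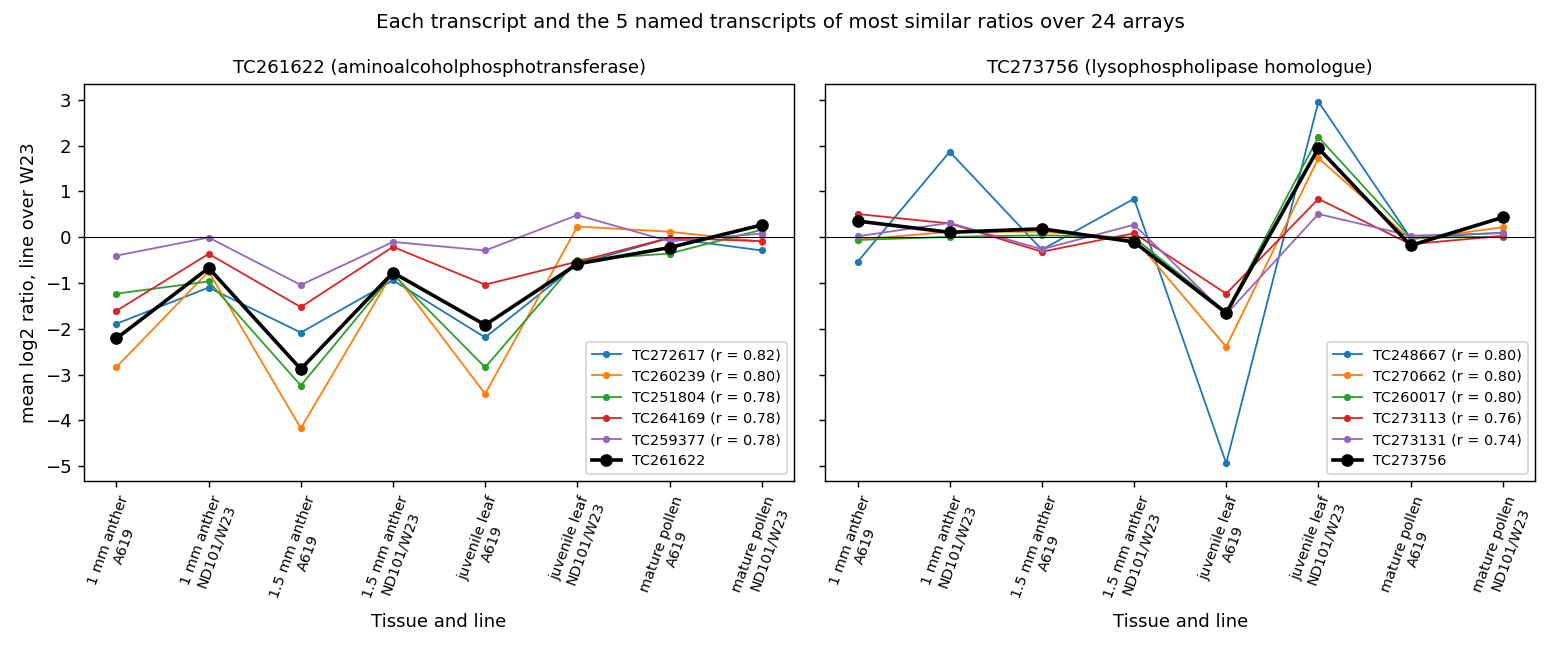
Mean log2 ratio of the line over W23 (vertical axis) in the 8 comparisons for TC261622 (left panel, black) and TC273756 (right panel, black), each with the 5 named transcripts of most similar ratios over the 24 arrays. Lines join means for legibility only. The transcripts like TC261622 are below 0 in A619 anthers and A619 leaf and near 0 in pollen. Those like TC273756 are low in A619 leaf and above 0 in ND101/W23 leaf.

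To place the members within membrane lipid metabolism, 30 other transcripts were collected by product name, of which 29 had a value. They are transcripts on the study's tissue lists, since other probes have no product name here. By those lists none was counted as present outside the tissue of its own list. The limit given for the members therefore holds for their ratios in other tissues as well. Of the 29, 6 have a probe in reverse orientation to the assembly (TC251342, TC262312, TC260017, TC262254, TC250844 and TC258416). Whether each assembly runs in the coding direction was not checked, so these probes may measure the strand opposite to the named product. Over the 4 tissues, 16 of 116 tests in A619 were called (6 higher and 10 lower), which is 13.8% beside 17.0% over all probes. In ND101/W23 it was 2 of 116 (1 higher and 1 lower), which is 1.72% beside 5.55%. With the replicate number as a block the hybrid had 12 calls on the list, 10.3% of its tests beside 11.1% over all probes. For a line over W23, that block takes differences between W23 samples out of the error. Those differences belong to the uncertainty of such a ratio, so block calls of a line over W23 understate it. In neither line was the share of the list above that of all probes. Of the 16 A619 calls 5 remained without each replicate in turn, and of the 2 of ND101/W23 0 did. The median of the list lay between -0.157 and 0.073 in A619 and between -0.123 and 0.047 in ND101/W23.

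Of the 3 other transcripts of phosphatidylcholine and phosphatidylethanolamine synthesis, none was called in A619 anthers at either stage. TC261629 and AI820254.1 are on the study's leaf list, so they were not counted as present in anthers. TC271630 is on that of 1.5 mm anthers, so it was not counted as present in 1 mm anthers, leaf or pollen. The lack of calls in anthers therefore does not show that the pathway was unchanged there. TC261629, similar to choline kinase, rose in leaf of A619, with ratios of 1.53, 1.63 and 1.43 (adjusted p = 0.000231 from limma), and in leaf of ND101/W23, with 0.45, 0.85 and 0.47 (adjusted p = 0.0341). The A619 call held without each replicate, and the ND101/W23 call was lost without any 1. In 1.5 mm anthers its arrays scattered, at -0.15, 2.01 and 1.29 in A619, against -0.49, 3.36 and -0.80 in ND101/W23, and no difference was called. TC271630, similar to the enzyme that forms CDP-choline from phosphocholine, rose in A619 leaf (mean 0.60 ± 0.25, adjusted p = 0.0277 from limma) and fell in A619 pollen (mean -0.92 ± 0.20, adjusted p = 0.0225), calls that were lost without any 1 replicate. In ND101/W23 leaf its mean was 0.62 ± 0.37, which was not called in the fit of the tissue (adjusted p = 0.067 from limma). The block gave a lower adjusted p (0.0125 from limma), but without the differences between W23 samples in its error, and is not read as a call. AI820254.1, similar to phosphoethanolamine methyltransferase, was not called in any of the 8 comparisons, and its means lay between -0.36 and 0.21.

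In A619 1.5 mm anthers 5 of the 29 list transcripts were called, 1 higher and 4 lower, which is 17.2% beside 20.3% of all probes. TC273805, weakly similar to a GDSL-motif lipase, rose with a mean of 1.85 ± 0.40 (adjusted p = 0.00201 from limma). TC261801, similar to a glycerophosphodiester phosphodiesterase, which cleaves deacylated phospholipids, fell with a mean of -2.07 ± 0.28 (adjusted p = 0.00366). TC260031, a C-24 sterol methyltransferase of phytosterol synthesis, fell with a mean of -1.23 ± 0.14 (adjusted p = 0.00285 from limma). TC278460, a glycerol-3-phosphate dehydrogenase-like transcript for the glycerol backbone, had a mean of -0.93 ± 0.26, and TC277071, a digalactosyldiacylglycerol synthase of plastid galactolipids, of -0.57 ± 0.12. The calls of TC273805 and TC261801 held without each replicate, and the other 3 were lost without at least 1. Of the 5, only TC273805 is on the study's list for 1.5 mm anthers, so the others were not counted as present there.

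In 1 mm anthers the single call in each line was the same transcript, TC259358, weakly similar to a nonspecific lipid-transfer protein. It fell in A619 (mean -1.07 ± 0.62, adjusted p = 0.0499 from limma) and in ND101/W23 (mean -0.97 ± 0.30, adjusted p = 0.0499), against shared W23 samples, and both calls were lost without any 1 replicate. With the block, 3 of the 29 list transcripts were called in ND101/W23 at 1 mm and 1 at 1.5 mm, beside 890 and 539 of the 7900 probes with a value. Without the block limma called 0 in ND101/W23 at 1.5 mm (6 at an unadjusted p under 0.05, 0 with Rank Products, the test of the study) and 0 in ND101/W23 pollen (4 at an unadjusted p under 0.05, 0 with Rank Products and 0 with the block).

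In A619 leaf 9 of the 29 were called, 5 higher and 4 lower, which is 31.0% beside 42.0% of all probes, and 1 of the 4 lower ones (TC250844) has a probe in reverse orientation. Besides TC261629 and TC271630, the largest were TC269777, similar to a UDP-glucose:sterol glucosyltransferase, which fell with ratios of -3.10, -3.79 and -0.56 (adjusted p = 0.00982 from limma), and TC272236, weakly similar to CDP-diacylglycerol synthase, which activates the lipid backbone for other head groups, and which fell with a mean of -1.16 ± 0.32 (adjusted p = 0.00483). A second sterol glucosyltransferase on the list rose with a mean of 1.08 ± 0.27 (adjusted p = 0.00125 from limma), the opposite sign to TC269777. By the study's lists TC269777 is specific to pollen and the second glucosyltransferase to 1.5 mm anthers. Neither was thus counted as present in leaf, and how far their leaf signals lay above background is not known. TC259358 rose with a mean of 0.72 ± 0.52 (adjusted p = 0.0289 from limma), a call that remained in 1 of 3 fits without a replicate. The calls of TC272236 and of this second glucosyltransferase held without each replicate, while that of TC269777 also remained in 1 of 3. In ND101/W23 leaf choline kinase was the single call, which is 3.45% of the list beside 10.3% of all probes. With the block 8 of the 29 were called (4 higher and 4 lower), beside 1918 of the 7900 probes with a value.

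**Figure D5:**
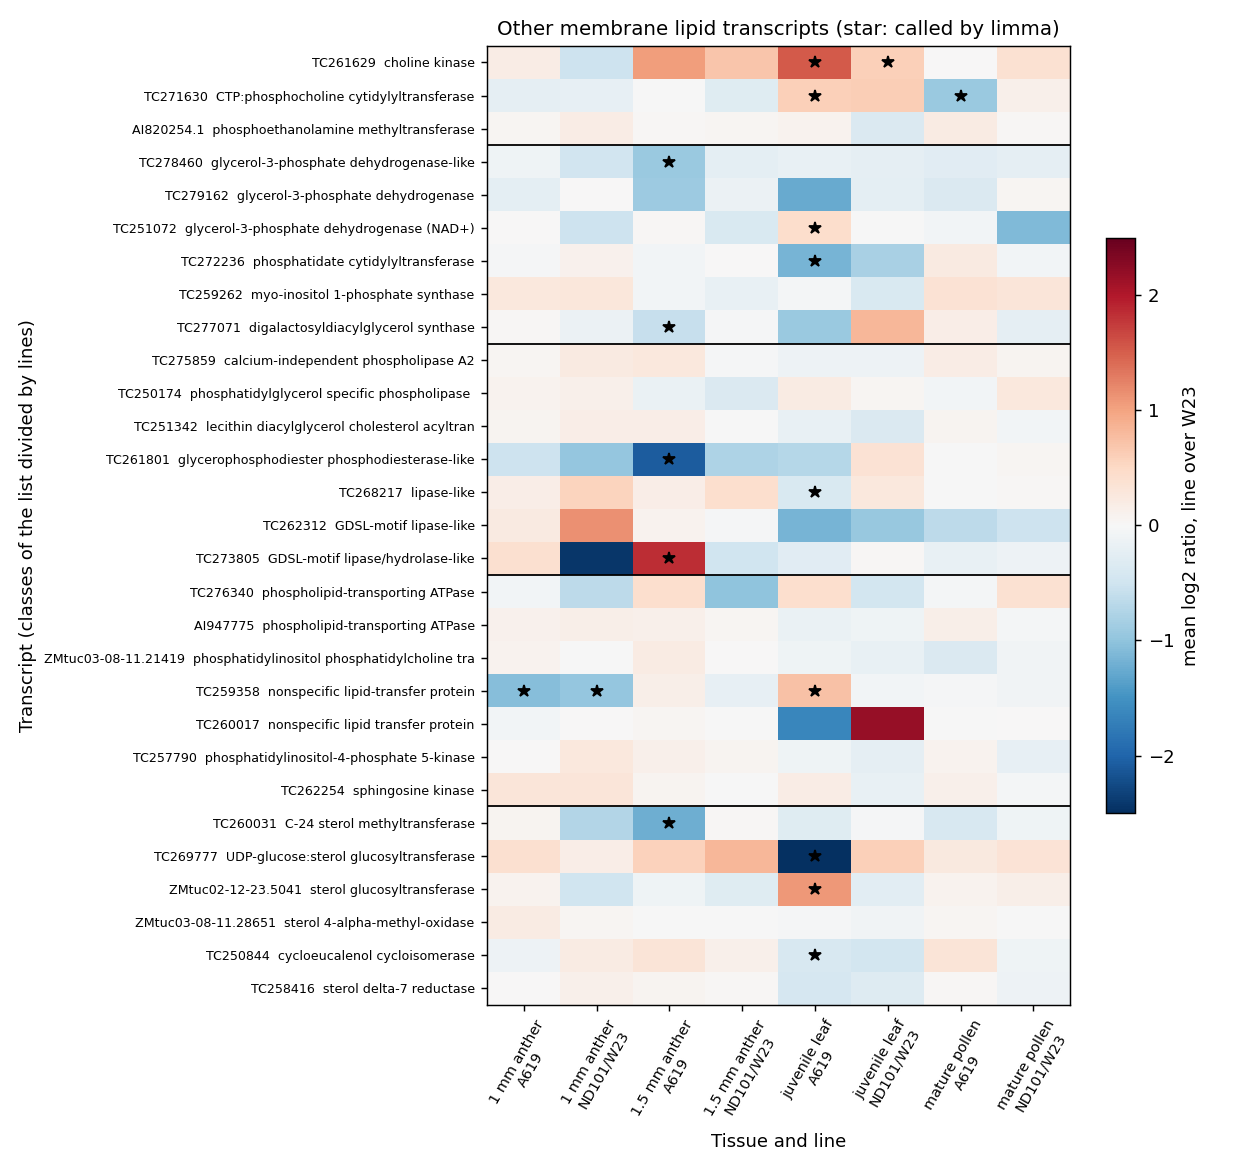
Mean log2 ratio of the line over W23 (colour, which saturates at 2.5 in either direction) of the 29 other membrane lipid transcripts (rows, grouped by class from phosphatidylcholine and phosphatidylethanolamine synthesis at the top to sterols at the bottom) in the 4 tissues, A619 left of ND101/W23. Stars are the limma calls, 16 in A619 and 2 in ND101/W23.

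The difference between lines was called for 0 list transcripts in 1 mm anthers and 0 in pollen (3 each at an unadjusted p under 0.05, and 0 with the block), 2 in 1.5 mm anthers and 5 in leaf. At 1.5 mm TC273805 was higher in A619 than in ND101/W23 by 2.35 ± 0.64 (adjusted p = 0.00897 from limma) and TC260031 lower, at -1.26 ± 0.43 (adjusted p = 0.0252). In leaf the largest were TC260017, at -3.82 ± 1.41 (adjusted p = 0.0221 from limma), and TC269777, at -3.07 ± 1.54 (adjusted p = 0.0313), then the second sterol glucosyltransferase at 1.33 ± 0.21 (adjusted p = 0.00596), TC261629 at 0.94 ± 0.15 (adjusted p = 0.0125) and TC268217, a lipase-like transcript, at -0.64 ± 0.28 (adjusted p = 0.0473). Here ± is the SD of the 3 same-number differences, while these p-values come from the fit that does not use the shared W23 sample. The calls at 1.5 mm and in leaf are 6.9% and 17.2% of the list, beside 3.84% and 21.0% of all probes. With the block, which does use the shared W23 sample, the list counts were 4 of 29 in 1.5 mm anthers and 8 of 29 in leaf. Among the 7900 probes with a value, the block called 819 and 2615. All 7 calls were kept with it (adjusted p = 0.0164 from limma for TC273805). In the fit without the block, none of the 7 calls held without each replicate in turn.

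TC260017 is also among the transcripts most like TC273756. Its leaf ratios were -2.04, -1.13 and -1.72 in A619, against 0.63, 4.26 and 1.67 in ND101/W23, without overlap. Neither mean was called on its own (adjusted p = 0.0685 in A619 and 0.0675 in ND101/W23 from limma). The block gave lower adjusted p (0.0113 in A619 and 0.0117 in ND101/W23 from limma). Its error leaves out the differences between W23 samples, so these are not read as calls. The probe of TC260017 lies in the reverse orientation to the assembly, with 1 mismatch, so that the strand measured may not be that of the named product. Its line difference was called in 1 of the 3 fits without a replicate.

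Between tissues within a line, 7 list transcripts were called for A619 leaf minus anthers (3 higher and 4 lower, with 40.4% of all probes called), 2 for pollen minus anthers (1 and 1, with 9.10%) and 1 for 1.5 mm minus 1 mm (lower, with 2.73%). In ND101/W23 it was 4 for leaf minus anthers (3 higher and 1 lower, with 15.4%). For pollen minus anthers it was 0 (5 at an unadjusted p under 0.05, with 6.63% of all probes called), and for 1.5 mm minus 1 mm 0 (2 at an unadjusted p under 0.05, with 0.0634%). The leaf ratio of TC271630, for CDP-choline synthesis, exceeded its anther ratio in both lines. The excess was 0.72 in A619 (adjusted p = 0.00995 from limma) and 0.87 in ND101/W23 (adjusted p = 0.0098), each with a standard error of 0.21.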

How the data were processed

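RNA of A619, ND101/W23 and W23 was measured on Agilent arrays of 2 colours. The authors processed images with Agilent Feature Extraction, removed saturated spots, kept probes above thresholds from negative controls in at least 1 comparison, fitted a loess curve to rank-invariant probes of each array, and brought the triplicates to 1 level of variance. The deposited values are the resulting log2 ratios: 21939 rows, 7900 probes with a value, at least 7884 on each array and 7817 on all 24. Precision is limited by the number of arrays, and signal over background is unknown.

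Probe numbers of the study were joined to the deposited rows at an offset of 3, where 22 of 23 probes named in both sources matched and other offsets gave 0. The labels and the design figure of the paper give opposite dyes. For ND101/W23 36 of 36 listed array ratios beyond 0.5 had the deposited sign. For A619 the direction is likely only, from same-number arrays of the lines. Deviations from the comparison means correlated at 0.198 to 0.645 for the 12 same-number pairs and -0.571 to 0.227 for other pairs, and the labels give those pairs the same W23 sample, so the numbers pair the arrays.

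Contrasts were fitted with limma 3.58.1 (R 4.3.3), lmFit and eBayes, on the 6 arrays of a tissue with a mean for each line, with Benjamini-Hochberg adjustment over all probes. Tissue differences used all 24 arrays. Alternatives were Rank Products (100 permutations), the replicate block, centred or rescaled arrays, a term for dye, probe filters, no sign rule and leaving out each replicate. Tested on simulated data in the 8 comparisons, limma found 58 to 68 of the 100 probes changed 2-fold and 90 to 94 of the 100 changed 4-fold, and made 3 to 14 false calls. The simulated noise was independent between arrays, with no shared W23 sample and no shift of whole lists. False calls in the real data may therefore differ from these. Python 3.11.15, numpy 2.4.6, pandas 2.3.3, scipy 1.17.1 and matplotlib 3.10.9 were used.

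The members, the lipid list (by product name) and the tests were chosen with earlier results of these data known. Named were both members, in each line and tissue up to 6 called list transcripts with the largest ratios, the 3 of phosphatidylcholine and phosphatidylethanolamine synthesis, and the 5 named transcripts of highest correlation with each member. Calls between lines and between tissues were named for the same list. Signals, sequences and genome positions are not analysed here.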

Additional observations from a re-analysis of the deposited data

Results flagged for a closer look

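Each value here is a difference of log2 ratios between lines or between tissues, singled out by a contrast of the limma fit. Both transcripts had been selected on ratios of these same arrays, so being singled out is no evidence for a difference. The contrasts are descriptions and no test is read from them. For TC261622, A619 minus ND101/W23 was -1.54 in 1 mm anthers and -2.11 in 1.5 mm anthers. For TC273756 it was -3.60 in leaf, with A619 below W23 on all 3 arrays and ND101/W23 above W23 on all 3. Within A619, pollen minus anthers was 2.32 for TC261622. For TC273756, leaf minus anthers was -1.93 in A619 and 1.94 in ND101/W23. All ratios of a tissue rest on 3 W23 samples shared by the lines.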

How the results depend on the processing

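The ratios of TC261622 in A619 anthers and of TC273756 in leaf of both lines, with their line differences, kept their sign under every alternative run for them. Of 168 values of the members under the alternatives, 164 moved by less than 1 SD between replicates. With arrays rescaled to a common median absolute deviation, TC261622 in A619 moved to -2.79 in 1 mm and -2.61 in 1.5 mm anthers, and its line difference (alternatives added after seeing the data) to -2.25 and -1.75. The ratio of TC261622 in A619 without 1 replicate ran from -2.32 to -2.02 in 1 mm and from -2.91 to -2.84 in 1.5 mm anthers, and its line difference from -1.77 to -1.29 and from -2.20 to -1.99.

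Counts over all probes depended on the setting. With rescaled arrays A619 had 717 calls in 1 mm anthers (327 before) and 77 in pollen (121), and ND101/W23 209 in 1 mm anthers (557) and 1823 in leaf (810). With the replicate block, which takes up the shared W23 sample, there were 184 in A619 pollen, and in ND101/W23 890 at the 1 mm stage, 539 at 1.5 mm (313), 1918 for leaf and 150 for pollen (74). That block leaves differences between W23 samples out of the error, which understates the uncertainty of a line over W23. A dye coefficient gave 1294 in ND101/W23 leaf. A model on all 24 arrays gave 373 in A619 pollen, 537 in ND101/W23 1.5 mm anthers and 326 in ND101/W23 pollen. Rank Products gave 285 in A619 1.5 mm anthers (1605), 332 in A619 leaf (3316), and in ND101/W23 119 at the 1 mm stage, 137 at 1.5 mm and 182 for leaf.

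Without 1 replicate the counts of A619 ran from 44 to 75 at the 1 mm stage, 191 to 1508 at 1.5 mm, 1617 to 2988 for leaf and 0 to 122 for pollen. Those of ND101/W23 ran from 0 to 383, 0 to 930, 0 to 449 and 0 to 89. These fits have fewer samples.

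On the lipid list A619 had 8 to 13 calls without 1 replicate and 3 with Rank Products (16 in the reported fit). ND101/W23 had 0 to 3 without 1 replicate, 6 with rescaled arrays, 4 with a dye coefficient, 12 with the replicate block, 6 with the 24-array model and 1 with Rank Products (2 in the reported fit). The cause of these changes was not tested.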
